A study of Mus musculus with 24 samples.

Results

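The genes described here encode the antioxidant enzymes of mouse liver and the NRF2 pathway that controls many of them. They are a list of 36 genes covering the regulator pair *Nfe2l2* and *Keap1*, quinone, heme and iron handling, glutathione, thioredoxin and peroxiredoxins, superoxide dismutases, and the enzymes that supply NADPH. A gene was measured by a probe set annotated with that single symbol, and by the brightest one where there were several, which gave 33 of the 36 genes, out of 19938 genes with such a probe set on the arrays. *G6pdx*, *Prdx5* and *Prdx6* had no probe set of that kind and were not analysed here. The level of the genes was not used to choose them, but the list was chosen with earlier results of these data known.

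NRF2, the product of *Nfe2l2*, is a transcription factor that is kept low by KEAP1, an adaptor that hands it to a CUL3 ubiquitin ligase for degradation. Oxidants and electrophiles modify cysteines of KEAP1, NRF2 then accumulates, pairs with a small MAF protein and binds antioxidant response elements near its target genes. Its targets in liver include quinone reductase, heme oxygenase 1, the glutathione synthesis enzymes and much of the thioredoxin system, while several mitochondrial enzymes in the list, such as SOD2 and thioredoxin 2, are also under the control of other factors.

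Liver RNA was hybridised to 24 Affymetrix Mouse Gene ST arrays, 1 per animal and 6 per group. The groups were male Ogg1-/- mice on a high-fat diet (HFD), WT mice on the HFD, Ogg1-/- mice on chow, and WT mice on chow. All were labelled as strain C57BL6 and were housed singly and fed for 10 weeks. OGG1 is the DNA glycosylase that removes 8-oxoguanine, the commonest oxidised base, and it was missing from every tissue of the Ogg1-/- mice, which came from matings of heterozygotes after repeated backcrossing. The labels put the start of housing at 10 weeks of age, and the methods of the study give a somewhat older age. The HFD drew most of its calories from fat.

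The probe set of *Ogg1* averaged 5.87 ± 0.13 log2 units in Ogg1-/- livers and 6.46 ± 0.08 in WT livers on the HFD (SD, n = 6 each). On chow it averaged 5.93 ± 0.06 in Ogg1-/- livers and 6.47 ± 0.11 in WT livers. The genotypes did not overlap on either diet (two-sided exact permutation tests, p = 0.00216 each, the smallest that 6 against 6 livers allow). None of the 33 genes lies on the chromosome of *Ogg1*. Whole-liver RNA was measured, so that fewer cells of a type and less RNA per cell cannot be told apart.

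A few livers stood apart before any comparison was made. WT HFD replicate 5 was the highest of the 6 WT HFD livers in 22 of the 33 genes (66.7%), against 30.7% of all genes with a mean log2 value of at least 8, and the submitters' short code for it ends in the same letters as those of all 6 WT chow livers. No other array has that ending, and what it stands for is not stated. On chow it cannot be told apart from the genotype. In WT livers it nearly follows the diet, so it also enters the diet comparison of WT livers and the interaction. Ogg1-/- chow replicate 1 was the highest of its group in 16 of the 33 genes (48.5%), against 39.3% of genes at that level.

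An axis of variation was also drawn from the chow livers. The first principal component of the differences within the chow groups held 40.2% of that variation, and every liver was given a score on it. The scores lay between 31.0 and 67.3 in Ogg1-/- HFD livers, against -8.21 to 22.9 in WT HFD livers, so the genotypes did not overlap on the HFD. On chow they spread between -29.6 and 93.4 in Ogg1-/- livers, with replicate 1 at the top and the next liver at 20.2, and between -33.6 and 5.999 in WT livers. The axis was drawn from these same chow livers, so it leans strongly on Ogg1-/- chow replicate 1. The genotype differences that passed on the HFD were therefore fitted with this score too, and those values or counts follow the others.

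On the HFD, 11 of the 33 genes were higher and 2 were lower in Ogg1-/- livers than in WT livers (limma, adjusted p under 0.05 over all probe sets). The higher ones were *Keap1*, *Fth1*, *Gclm*, *Gsr*, *Gpx1*, *Txn2*, *Txnrd2*, *Prdx1*, *Prdx2*, *Sod2* and *Sod3*, and the lower ones were *Hmox2* and *Gclc*. The changes were small, and only *Gclc* reached the 1.5-fold size that the methods of the study also ask for. At that size 6.12% of all genes passed. The median difference of the 33 genes was 0.26 log2 units, against 0.03 for all genes and 0.10 for genes with a mean log2 value of at least 8, and 27 of them (81.8%) lay above 0, against 56.3% of all genes.

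The share of members that passed has to be read against a comparison in which much of the transcriptome moved. Of all 19938 genes, 11.9% were higher and 11.8% were lower in Ogg1-/- livers on the HFD, against 33.3% and 6.06% of the members. Antioxidant genes are strongly expressed in liver, however, and bright probe sets passed more often. Among the 4837 genes with a mean log2 value of at least 8, a level chosen after the values were seen, 29.3% were higher and 21.1% were lower. Of the 27 members at that level, 8 were higher and 2 were lower (29.6% and 7.41%). The share of members that were higher was thus near that of other bright genes. In 6 of the 33 genes (18.2%) the 6 Ogg1-/- livers did not overlap the 6 WT livers, against 15.4% of all genes.

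**Figure D1:**
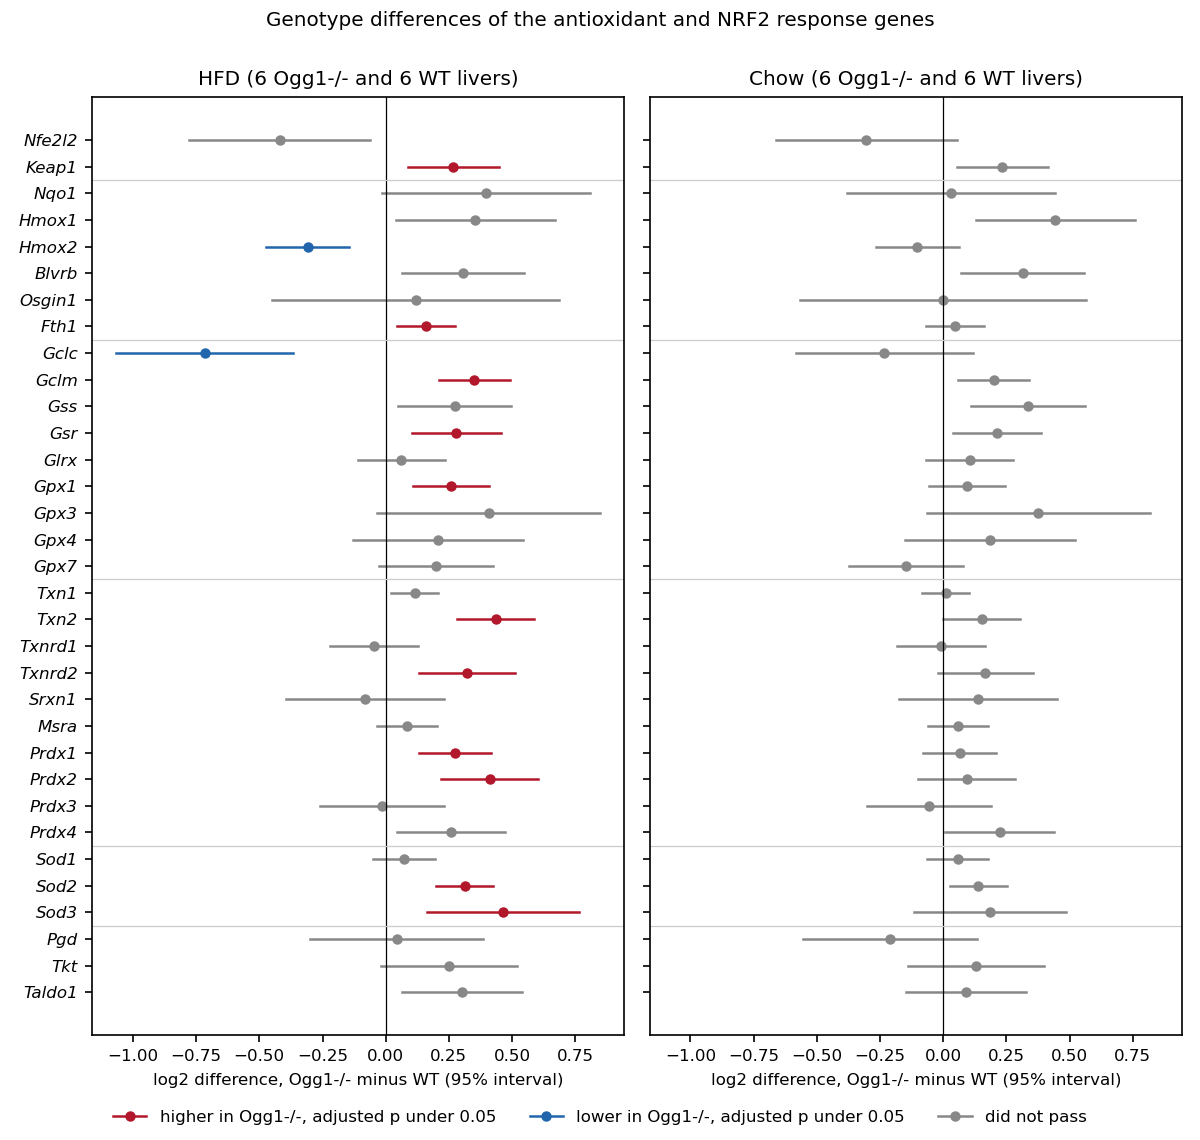
Genotype differences of the 33 genes on the HFD (left) and on chow (right). Points are log2 differences, Ogg1-/- minus WT, lines are 95% intervals from the limma fit, and colours mark genes that were higher (red) or lower (blue) at an adjusted p under 0.05. On the HFD 11 genes are red and 2 are blue, with *Gclc* at -0.72, and on chow every point is grey.

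The regulator and its inhibitor stood on opposite sides of 0. On the HFD, *Nfe2l2* lay between 9.35 and 10.02 (median 9.64) log2 units in Ogg1-/- livers and between 9.81 and 10.47 (median 10.05) in WT livers. The groups overlapped, and the difference of -0.42 ± 0.17 (SE) did not pass (limma, adjusted p = 0.092). *Keap1* lay between 7.44 and 7.81 (median 7.62) in Ogg1-/- livers and between 7.14 and 7.51 (median 7.36) in WT livers. It was higher by 0.27 ± 0.09 (adjusted p = 0.033), with overlap between the livers. On chow the differences were -0.30 for *Nfe2l2* (adjusted p = 0.36) and 0.23 for *Keap1* (adjusted p = 0.18), neither of which passed. These are transcript levels, whereas NRF2 is controlled mainly as a protein.

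Of the 6 genes of quinone, heme and iron handling, 1 was higher and 1 was lower on the HFD (16.7% each). Of all genes 11.9% were higher and 11.8% were lower, and of bright genes 29.3% and 21.1%. *Hmox2* encodes the constitutive heme oxygenase. Its values lay between 9.06 and 9.40 (median 9.31) in Ogg1-/- livers and between 9.51 and 9.76 (median 9.54) in WT livers. Every Ogg1-/- liver was below every WT liver, with a difference of -0.31 ± 0.08 (adjusted p = 0.0098). The inducible enzyme *Hmox1*, a classic NRF2 target, lay between 8.73 and 9.24 (median 8.94) in Ogg1-/- livers and between 8.13 and 9.01 (median 8.69) in WT livers. Its difference of 0.35 ± 0.15 did not pass (adjusted p = 0.11). Without WT HFD replicate 5, whose *Hmox1* value was the highest of its group, the difference was 0.44 and passed (adjusted p = 0.046). Leaving out the highest WT value widens this difference by construction.

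*Nqo1*, the quinone reductase often used as a readout of NRF2 activity, did not pass either. It lay between 7.04 and 7.86 (median 7.44) in Ogg1-/- HFD livers and between 6.45 and 7.62 (median 6.90) in WT HFD livers, with a difference of 0.40 ± 0.20 (adjusted p = 0.17). The WT livers spread widely, and the groups overlapped widely. *Fth1*, the heavy chain of the iron store ferritin, lay between 13.69 and 13.81 (median 13.74) in Ogg1-/- HFD livers and between 13.39 and 13.78 (median 13.60) in WT HFD livers. It was higher by 0.16 ± 0.06 (adjusted p = 0.047), but it is so close to the threshold that it passed in only 3 of the 24 fits that left out 1 liver. *Blvrb*, a biliverdin reductase, and *Osgin1*, a stress-induced growth inhibitor, differed by 0.31 (adjusted p = 0.069) and 0.12 (adjusted p = 0.83).

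The 2 subunits of glutamate cysteine ligase, the rate-limiting enzyme of glutathione synthesis, moved in opposite directions on the HFD. *Gclc*, the catalytic subunit, lay between 11.02 and 11.78 (median 11.40) in Ogg1-/- livers and between 11.72 and 12.39 (median 12.14) in WT livers. A single WT liver fell within the Ogg1-/- range, and the difference was -0.72 ± 0.17, or 1.64-fold lower (adjusted p = 0.0063). *Gclm*, the modifier subunit, lay between 12.47 and 12.72 (median 12.60) in Ogg1-/- livers and between 12.02 and 12.40 (median 12.28) in WT livers. All 6 Ogg1-/- livers were above all 6 WT livers, and *Gclm* was higher by 0.35 ± 0.07 (adjusted p = 0.0025).

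Within each liver the gap between the subunits shows the same pattern, given here as a description because the pair was chosen after its values were seen. *Gclm* minus *Gclc* was 1.19 ± 0.38 log2 units in Ogg1-/- HFD livers, between 0.756 and 1.65, and 0.13 ± 0.32 in WT HFD livers, between -0.17 and 0.63 (SD, n = 6 each). On chow it was 0.51 ± 0.47 in Ogg1-/- livers, between 0.15 and 1.41, and 0.08 ± 0.05 in WT livers, between 0.02 and 0.16. The genotypes did not overlap on the HFD, and on chow a single Ogg1-/- liver fell just within the WT range. The top chow value came from Ogg1-/- chow replicate 1, which also had the highest axis score of all. The gap compares 2 probe sets of unequal affinity, so its size within a liver has no meaning of its own.

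Of the other 7 genes of the glutathione system, 2 were higher on the HFD. With *Gclc* and *Gclm*, 3 of 9 were higher and 1 was lower (33.3% and 11.1%). Of all genes 11.9% and 11.8% were, and of bright genes 29.3% and 21.1%. *Gpx1*, the abundant cytosolic selenoenzyme that reduces hydrogen peroxide, lay between 13.60 and 13.85 (median 13.71) in Ogg1-/- livers and between 13.28 and 13.64 (median 13.46) in WT livers, a difference of 0.26 ± 0.07 (adjusted p = 0.015). *Gsr*, which returns oxidised glutathione to its reduced form, lay between 10.07 and 10.51 (median 10.32) in Ogg1-/- livers and between 9.93 and 10.17 (median 10.02) in WT livers, a difference of 0.28 ± 0.08 (adjusted p = 0.023). Both sets of livers overlapped slightly. Glutathione synthetase (*Gss*) differed by 0.27 (adjusted p = 0.081), and without WT HFD replicate 5 it passed at 0.35 (adjusted p = 0.017). Glutaredoxin (*Glrx*) and the peroxidases *Gpx3*, *Gpx4* and *Gpx7* differed by 0.06, 0.41, 0.21 and 0.20, with adjusted p-values of 0.67, 0.20, 0.43 and 0.22. The second probe set of *Gpx4* gave 0.21 (adjusted p = 0.39).

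Thioredoxins are small proteins that reduce disulfides, and peroxiredoxins are the peroxidases they recharge. Of the 10 genes of this system, 4 were higher on the HFD (40%) and none was lower. Of all genes 11.9% were higher and 11.8% were lower, and of bright genes 29.3% and 21.1%. The clearest was *Txn2*, the mitochondrial thioredoxin, which lay between 11.72 and 11.81 (median 11.75) in Ogg1-/- livers and between 11.13 and 11.45 (median 11.32) in WT livers. The 6 Ogg1-/- livers stood in a narrow band clear of the WT livers, and the difference was 0.43 ± 0.07 (adjusted p = 0.0013). *Txnrd2*, its mitochondrial reductase, lay between 8.07 and 8.41 (median 8.20) in Ogg1-/- livers and between 7.76 and 8.09 (median 7.86) in WT livers, a difference of 0.32 ± 0.09 (adjusted p = 0.016) with a slight overlap. The cytosolic pair differed less and did not pass. *Txn1* lay between 13.99 and 14.11 (median 14.07) in Ogg1-/- livers and between 13.84 and 14.01 (median 13.97) in WT livers, a difference of 0.11 ± 0.05 (adjusted p = 0.080), and *Txnrd1* differed by -0.05 ± 0.08 (adjusted p = 0.76).

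The cytosolic peroxiredoxin genes *Prdx1* and *Prdx2* were higher in Ogg1-/- livers on the HFD. *Prdx1* lay between 12.94 and 13.03 (median 12.97) in Ogg1-/- HFD livers and between 12.44 and 12.89 (median 12.76) in WT HFD livers, a difference of 0.28 ± 0.07 (adjusted p = 0.0085). *Prdx2* lay between 11.56 and 11.79 (median 11.68) in Ogg1-/- HFD livers and between 11.09 and 11.48 (median 11.27) in WT HFD livers, a difference of 0.41 ± 0.09 (adjusted p = 0.0049). Neither gene had overlapping livers. Each has a dimmer second probe set, which passed in the same direction at 0.37 for *Prdx1* (adjusted p = 0.0090) and 0.38 for *Prdx2* (adjusted p = 0.0053). Near-identical copies of such genes can share probes, so the signal may not come from 1 locus alone. The mitochondrial *Prdx3* differed by -0.02 (adjusted p = 0.95) and *Prdx4*, of the endoplasmic reticulum, by 0.26 (adjusted p = 0.084). Sulfiredoxin (*Srxn1*), an NRF2 target that repairs peroxiredoxins, and the methionine sulfoxide reductase *Msra* differed by -0.08 (adjusted p = 0.78) and 0.09 (adjusted p = 0.34).

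*Prdx2* is also a major protein of red blood cells, and red-cell transcripts were measured beside it. Only 2 of the 11 red-cell markers listed had a probe set with a single symbol. *Alas2*, of erythroid heme synthesis, averaged 10.66 ± 0.23 in Ogg1-/- HFD livers and 10.15 ± 0.43 in WT HFD livers (SD, n = 6 each) and passed as higher (adjusted p = 0.017). *Slc4a1*, the red-cell anion exchanger, averaged 6.65 ± 0.24 in Ogg1-/- HFD livers and 6.59 ± 0.28 in WT HFD livers and did not pass. The mean of both markers lay between 8.31 and 8.94 in Ogg1-/- HFD livers, against 8.01 to 8.97 in WT HFD livers. Their part in the *Prdx2* difference was not tested.

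Superoxide dismutases turn superoxide into hydrogen peroxide, and 2 of the 3 were higher on the HFD. Of all genes 11.9% were higher, and of bright genes 29.3%. *Sod2*, the mitochondrial manganese enzyme, lay between 12.48 and 12.65 (median 12.57) in Ogg1-/- livers and between 12.15 and 12.35 (median 12.26) in WT livers. The groups did not overlap, and *Sod2* was higher by 0.31 ± 0.06 (adjusted p = 0.0016). *Sod3*, the extracellular enzyme, lay between 7.53 and 7.94 (median 7.76) in Ogg1-/- livers and between 7.04 and 7.72 (median 7.28) in WT livers, and was higher by 0.46 ± 0.15 (adjusted p = 0.028), with overlap. *Sod1*, the cytosolic copper and zinc enzyme, differed by 0.07 ± 0.06 (adjusted p = 0.45).

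None of the 3 measured genes of NADPH supply passed. *Taldo1* and *Tkt* of the pentose phosphate pathway differed by 0.30 (adjusted p = 0.065) and 0.25 (adjusted p = 0.19), and *Pgd*, its second NADPH-forming step, by 0.04 (adjusted p = 0.90). *Taldo1* passed at 0.36 without WT HFD replicate 5 (adjusted p = 0.029).

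**Figure D2:**
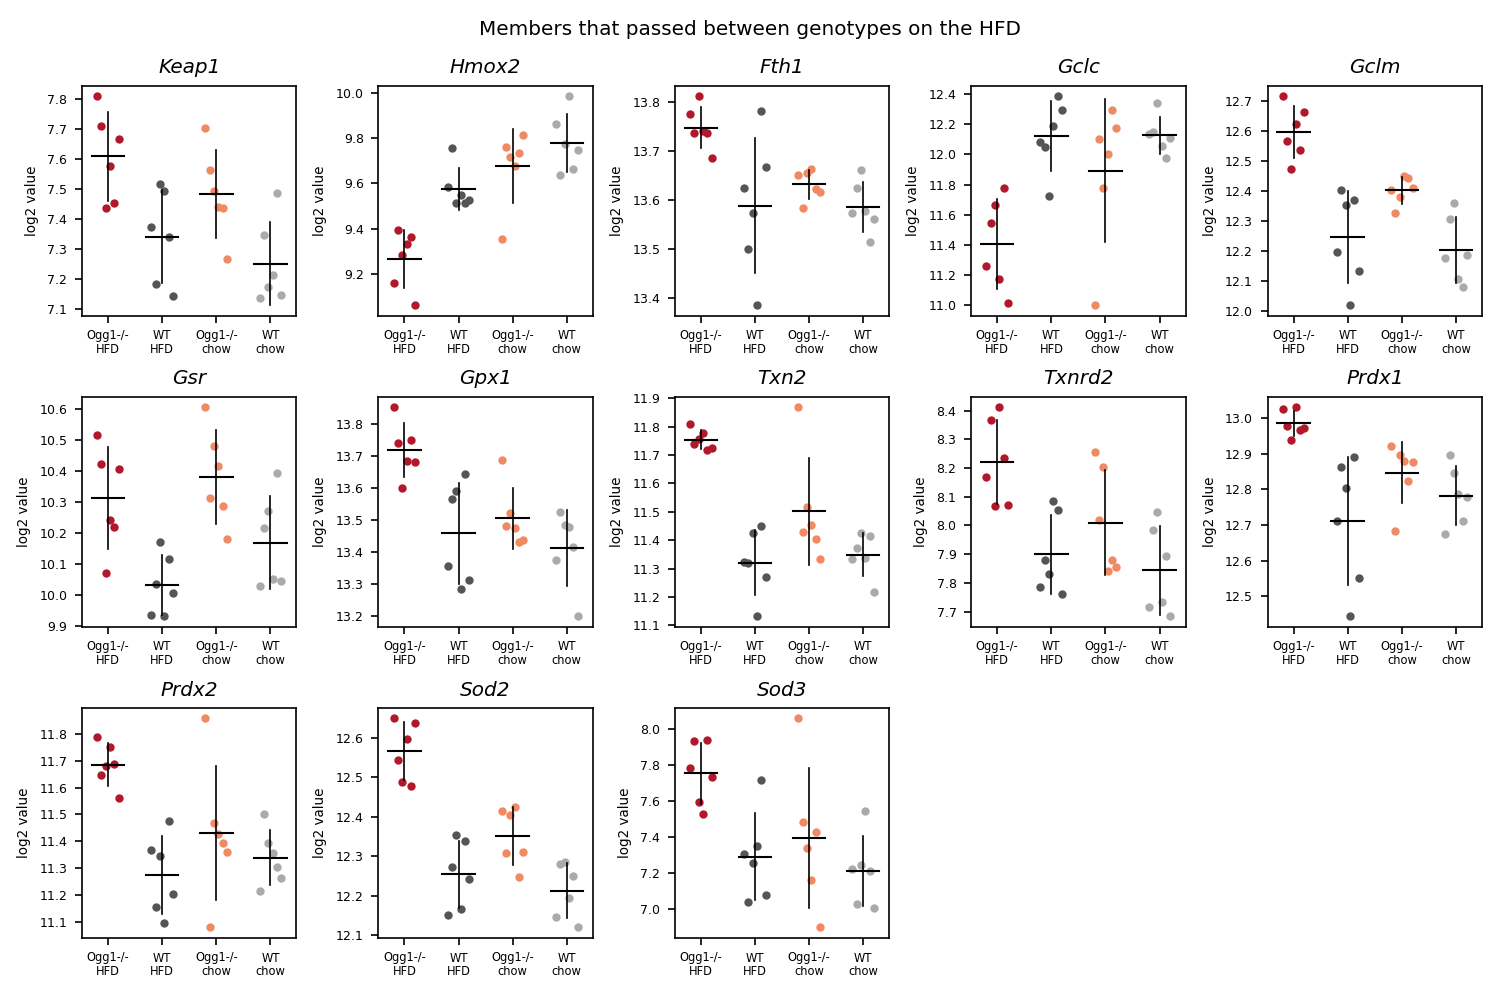
Log2 values of the 13 genes that passed between genotypes on the HFD, in each of the 24 livers. Points are livers, the horizontal mark is the mean of a group, the vertical line spans 1 SD to either side, and each panel has its own axis that does not start at 0. In *Hmox2*, *Gclm*, *Txn2*, *Prdx1*, *Prdx2* and *Sod2* the Ogg1-/- HFD livers do not overlap the WT HFD livers, and 1 Ogg1-/- chow liver lies far from its group in *Gclc*, *Txn2* and *Hmox2*.

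Without WT HFD replicate 5, 17 of the 33 genes passed on the HFD, 15 higher and 2 lower. At this setting 12.1% of all genes were higher and 11.2% were lower. The 13 genes listed above were among them, and *Hmox1*, *Blvrb*, *Gss* and *Taldo1* were added. This liver sat above the median of its group in most antioxidant genes, as the plot of single livers shows. Leaving it out therefore tends to widen the differences above 0 by construction. It stood out by its values in these same genes, so the added calls are no further support. The shares of bright genes were not counted at this setting.

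**Figure D3:**
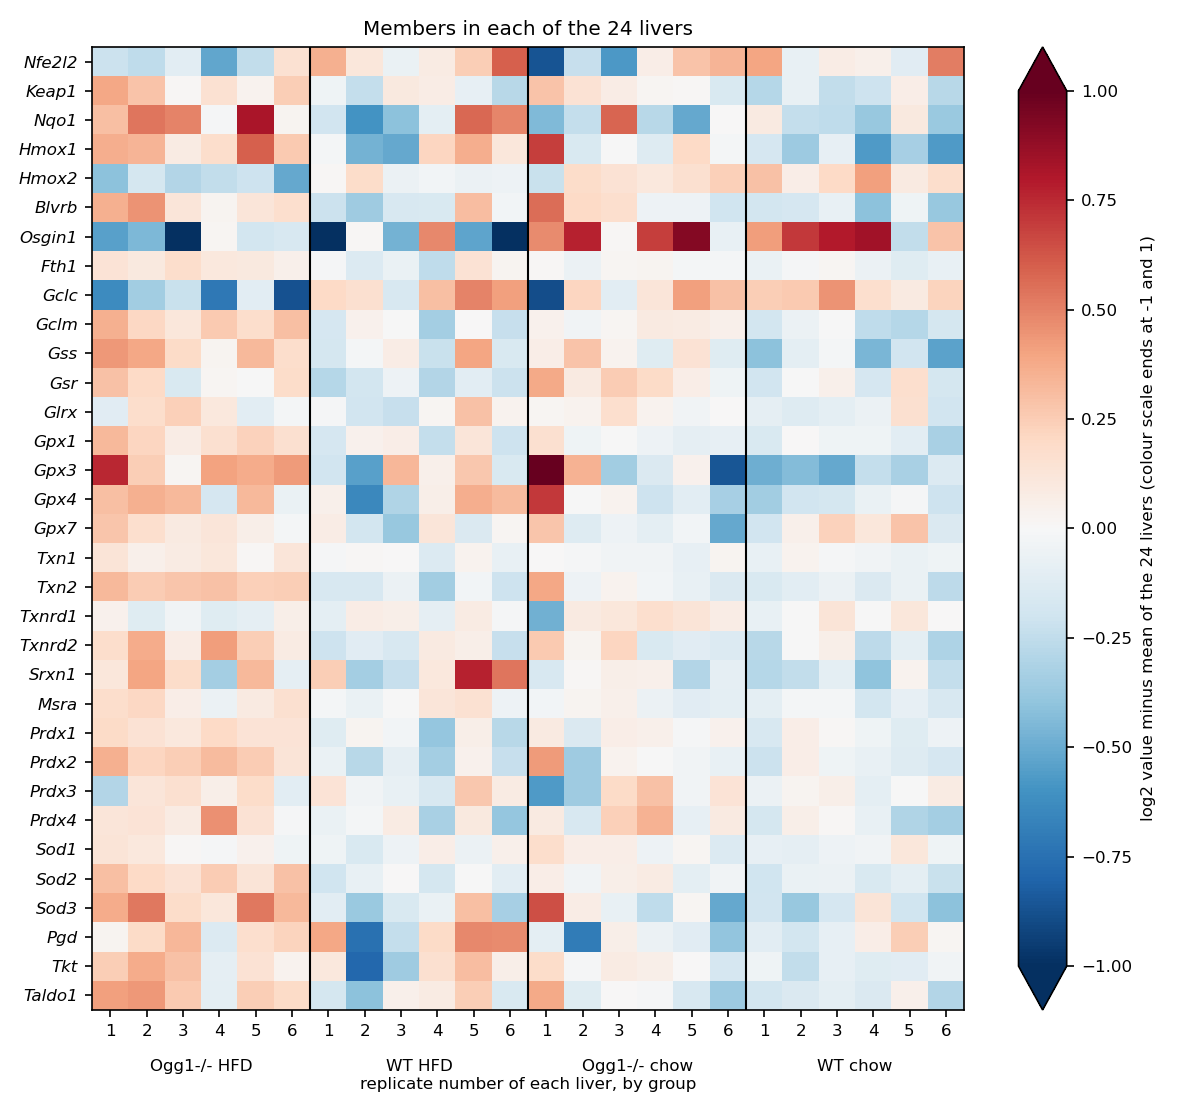
Each of the 33 genes (rows) in each of the 24 livers (columns, by group and replicate number), as the log2 value minus the mean of that gene over the 24 livers. Red is above and blue below that mean, and the colour scale ends at -1 and 1. The column of WT HFD replicate 5 is the reddest of its group, and that of Ogg1-/- chow replicate 1 holds the extremes of *Gclc*, *Gpx3*, *Gpx4* and *Txnrd1* in its group.

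With the axis score as a covariate, 3 of the 33 genes passed on the HFD, all higher. At this setting 1.23% of all genes were higher and 1.71% were lower. *Gclm* was higher by 0.34 (adjusted p = 0.023), *Txn2* by 0.28 (adjusted p = 0.013) and *Sod2* by 0.25 (adjusted p = 0.020). The *Gclm* difference was almost as large as without the score, while that of *Gclc* came to -0.37 (adjusted p = 0.17) and that of *Nfe2l2* to -0.06. *Gpx3*, *Gpx4*, *Sod1* and *Pgd* changed sign, as did *Prdx3* and *Txnrd1*, and none of these had passed without the score. The score entered the fit as 1 slope common to the 4 groups, estimated from the differences within groups. The scores spread most within the Ogg1-/- chow group (SD 43.5, against 11.1 to 15.5 in the others), where replicate 1 lay at 93.4. The slope therefore leans on that liver. Because the score did not overlap between genotypes on the HFD, the fit extends this slope across the gap between them. Which of these values is nearer to an effect of the genotype was not tested.

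**Figure D4:**
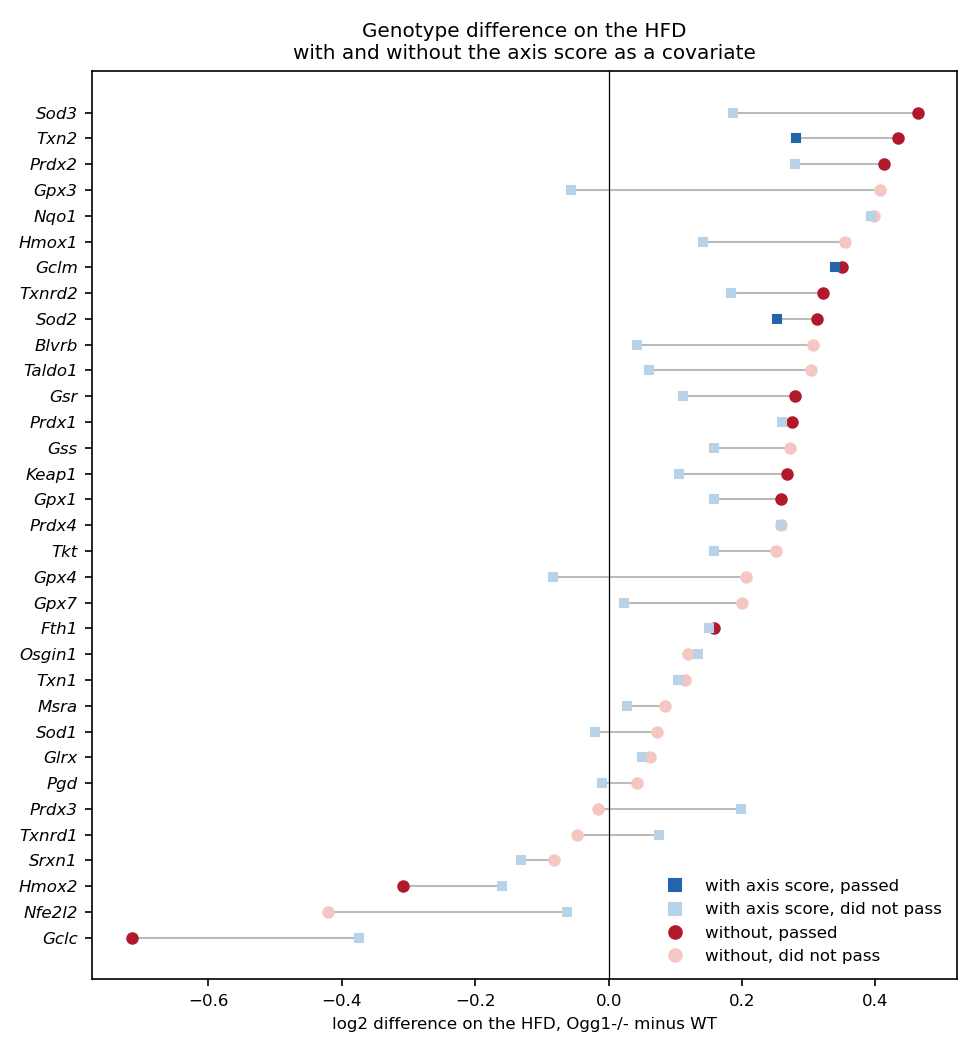
Genotype difference of each of the 33 genes on the HFD, in log2 units as Ogg1-/- minus WT, without the axis score (circles) and with it as a covariate (squares). Dark symbols passed at an adjusted p under 0.05. Of the 13 genes that passed without the score, *Gclm*, *Txn2* and *Sod2* passed with it, and *Gclc* lies at -0.72 without it and -0.37 with it.

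Some markers of other liver cells passed on the HFD as well. Of all genes 11.9% were higher and 11.8% were lower there, and of bright genes 29.3% and 21.1%. Of 8 markers of sinusoidal endothelial cells, which line the liver capillaries, 5 were lower in Ogg1-/- livers (62.5%). Their mean lay between 8.28 and 8.49 in Ogg1-/- livers, against 8.62 to 9.01 in WT livers, with no overlap. Of 8 markers of stellate cells, the vitamin A storing cells, 3 were lower (37.5%). Among 9 Kupffer cell markers, for the resident macrophages, 2 were higher and 2 were lower (22.2% each). Among 9 lymphocyte and neutrophil markers 1 was higher and 1 was lower (11.1% each). The shares of these last lists do not stand out from those of all or bright genes. None of the 8 hepatocyte, 5 cholangiocyte or 3 adipocyte markers passed. The hepatocyte mean lay between 13.40 and 13.55 in Ogg1-/- livers and between 13.31 and 13.57 in WT livers. With the axis score 1 of the 15 markers that passed, the Kupffer cell gene *Vsig4*, still did. At that setting 1.23% of all genes were higher and 1.71% were lower. On chow no marker of any list passed, but the mean of the 2 red-cell markers lay between 8.41 and 8.60 in Ogg1-/- livers, against 8.08 to 8.36 in WT livers, with no overlap. The lymphocyte and neutrophil mean lay between 5.41 and 5.81 in Ogg1-/- livers, against 5.35 to 5.53 in WT livers, with overlap. The part of these shifts in the antioxidant genes was not tested.

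On chow no antioxidant gene passed, while 0.617% of all genes did in either direction. In 8 of the 33 (24.2%) the unadjusted p was under 0.05, close to the 21.1% of all genes, and all 8 were higher in Ogg1-/- livers, as were 2450 of those 4206 genes. These were *Keap1*, *Hmox1*, *Blvrb*, *Gclm*, *Gss*, *Gsr*, *Prdx4* and *Sod2*. *Gss* differed by 0.33 ± 0.11 and *Hmox1* by 0.44 ± 0.15 (limma, adjusted p = 0.15 and 0.16). *Hmox1* lay between 8.49 and 9.33 (median 8.63) in Ogg1-/- chow livers and between 8.07 and 8.56 (median 8.30) in WT chow livers. The median difference of the 33 genes was 0.09, against 0.03 for all genes and 0.05 for bright genes. In no antioxidant gene did the livers of the genotypes stay apart, as they did in 1.23% of all genes. The methods' t-test also called 0 of the 33 genes.

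The genotype difference was tested for a change between the diets in each gene. No antioxidant gene passed, and 1 gene of all genes did (0.00502%). In 5 of the 33 (15.2%) the unadjusted p was under 0.05, against 6.07% of all genes. All 5 interactions were positive, as were 538 of those 1211 genes. They were *Txn2* (interaction 0.28 ± 0.10, limma, adjusted p = 0.62), *Prdx2* (0.32 ± 0.13, adjusted p = 0.65), *Sod2* (0.17 ± 0.08, adjusted p = 0.70), *Prdx1* (0.21 ± 0.10, adjusted p = 0.71) and *Gpx7* (0.35 ± 0.15, adjusted p = 0.70), whose genotype difference was 0.20 on the HFD and -0.15 on chow. Passing on the HFD and not on chow is therefore not shown to be a difference between the diets. *Txn2* averaged 11.75 ± 0.03 in Ogg1-/- livers and 11.32 ± 0.12 in WT livers on the HFD, and 11.50 ± 0.19 in Ogg1-/- livers and 11.35 ± 0.08 in WT livers on chow (SD, n = 6 each).

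Few of these genes passed between the diets. In Ogg1-/- livers 2 of the 33 were higher and 2 were lower on the HFD than on chow (6.06% each). These shares are near those of all genes, 5.59% higher and 5.87% lower. The unadjusted p was under 0.05 in 16 of the 33 (48.5%), against 28.8% of all genes. Of these 16, 13 were higher and 3 were lower, as were 3077 and 2661 of those 5738 genes. The median difference of the 33 genes was 0.14, against 0.04 for all genes and 0.06 for bright genes. *Txn2* was higher by 0.25 ± 0.07 (limma, adjusted p = 0.033), and its values lay between 11.72 and 11.81 (median 11.75) on the HFD and between 11.33 and 11.87 (median 11.44) on chow. Ogg1-/- chow replicate 1 held the top chow value, and the other 5 chow livers were below every HFD liver. The call was lost in 7 of the 24 fits that left out 1 liver, by the methods' t-test, with only the arrays of the groups compared and with the axis score. *Sod2* was higher by 0.21 ± 0.06 (adjusted p = 0.018, lost with the axis score and with only the arrays of the groups compared), between 12.48 and 12.65 (median 12.57) on the HFD and between 12.25 and 12.43 (median 12.36) on chow, with no overlap.

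*Hmox2* was lower by 0.41 on the log2 scale in Ogg1-/- livers on the HFD (difference -0.41 ± 0.08, limma, adjusted p = 0.0035). It lay between 9.06 and 9.40 (median 9.31) on the HFD and between 9.35 and 9.81 (median 9.73) on chow, and only Ogg1-/- chow replicate 1 fell within the HFD range. *Osgin1* was the gene with the largest diet difference of the list and was 1.83-fold lower, by -0.87 ± 0.27 (adjusted p = 0.046). It lay between 9.50 and 10.64 (median 10.30) on the HFD and between 10.54 and 11.54 (median 11.20) on chow, a slight overlap. Its call was a weak one, which passed in 8 of the 24 fits that left out 1 liver and neither by the methods' t-test nor with the axis score. *Gclc* differed by -0.49 ± 0.17 and *Gclm* by 0.19 ± 0.07 in these livers (adjusted p = 0.069 and 0.073), neither of which passed, although the *Gclm* values did not overlap. In 4 genes, *Fth1*, *Gclm*, *Prdx1* and *Sod2*, all 6 HFD livers were above all 6 chow livers (12.1%, against 2.83% of all genes in either direction). Without Ogg1-/- chow replicate 1, 13 of the 33 genes passed between the diets, 9 higher and 4 lower. Calls rose in all genes too, to 16.0% higher and 14.7% lower, so this count is no result about the antioxidant genes alone.

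In WT livers none of the 33 genes passed between the diets, while 1.11% of all genes did in either direction. *Osgin1* had the largest difference here too, at -0.99 ± 0.27 (limma, adjusted p = 0.092), and lay between 9.09 and 11.10 (median 10.12) on the HFD and between 10.37 and 11.46 (median 11.18) on chow. The unadjusted p was under 0.05 in 3 others, *Hmox2* (-0.21), *Gss* (0.27) and *Srxn1* (0.39), which makes 4 of the 33 (12.1%), against 13.5% of all genes. *Gclc* differed by -0.01 and *Gclm* by 0.04 between the diets in WT livers. The diet comparisons share their livers with the genotype comparisons, so their values stand side by side and were not set against each other.

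The core of the antioxidant response element, written TGACNNNGC, was searched on both strands in RefSeq promoter windows of the GRCm38.p6 build, from 250 bases before to 50 bases after the start of transcription. Of the 28 genes with such a window, 7 held a match (25.0%), as did 14.0% of the 27025 genes with a window. The matches were in *Nfe2l2*, *Gclm*, *Txnrd1*, *Srxn1*, *Prdx1*, *Sod1* and *Pgd*. Of the genes that were higher on the HFD, 2 of 9 with a window held a match, against 5 of the 18 that did not pass. The sites of the regulator and of the genes that were higher on the HFD are shown, each with 10 bases on either side and the match in capitals. They lie on chr2:75704885-75704913 (minus strand) for *Nfe2l2*, chr3:122245413-122245441 (plus strand) for *Gclm* and chr4:116685456-116685484 (plus strand) for *Prdx1*, and the match begins 240, 134 and 133 bases before the start. In *Gclm* and *Prdx1* it reads on the opposite strand.
Nfe2l2: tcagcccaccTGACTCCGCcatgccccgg
Gclm: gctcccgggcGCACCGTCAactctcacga
Prdx1: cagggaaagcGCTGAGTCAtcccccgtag
A match is a description of the letters and no binding was measured, and elements farther from the start were not searched.

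Other genes of the pathway were taken from lists that were not part of the 33. Of 16 genes that regulate NRF2 or KEAP1, 5 were higher and 1 was lower in Ogg1-/- livers on the HFD (31.2% and 6.25%). The shares of all genes were 11.9% and 11.8%, and those of bright genes 29.3% and 21.1%, so the higher share is near that of bright genes. *Cul3*, the scaffold of the ligase that takes NRF2 from KEAP1, was lower by 0.90 on the log2 scale (difference -0.90 ± 0.22, limma, adjusted p = 0.0070), with no overlap between livers. *Rbx1*, the RING subunit of that ligase, was higher by 0.35 (adjusted p = 0.019), a call that was lost with the mean of its probe sets. *Mafg* and *Maff*, small MAF partners of NRF2, were higher by 0.50 (adjusted p = 0.0019) and 0.33 (adjusted p = 0.021). *Dpp3* and *Park7* were the other genes that were higher. Over this and the following 3 lists 33 genes passed, and with the axis score 3 of these still did, *Mafg* (0.36, adjusted p = 0.033), *Cul3* (-0.29, adjusted p = 0.044) and *Nnt* (0.93, adjusted p = 0.0021).

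Of 29 further NRF2 targets measured, 4 were higher and 2 were lower on the HFD (13.8% and 6.9%), of which the higher share is near the 11.9% of all genes. The microsomal epoxide hydrolase *Ephx1* was higher by 0.45 (limma, adjusted p = 0.015) and the heme transporter *Slc48a1* by 0.38 (adjusted p = 0.014). *Abcc2*, a canalicular exporter of conjugates, was lower, with a difference of -0.62 (adjusted p = 0.0073), and so was the carboxylesterase *Ces1g* (-0.47, adjusted p = 0.025). The median of these targets was -0.0013, against 0.03 for all genes. On chow *Trib3*, a stress-induced pseudokinase, was higher by 0.59 (adjusted p = 0.0066), and it was the only target that passed there.

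Of 38 other genes of glutathione, thioredoxin and methionine sulfoxide reduction, 11 were higher and 3 were lower on the HFD (28.9% and 7.89%), the higher share again near the 29.3% of bright genes. The transcript of *Nnt*, a gene for a mitochondrial enzyme that forms NADPH, was higher by 0.65 ± 0.15 (limma, adjusted p = 0.0064). Its protein was not measured, and the *Nnt* allele of these mice is not stated. The sestrins *Sesn1* and *Sesn3*, stress-induced inhibitors of mTORC1, were lower (-0.60, adjusted p = 0.013, and -0.62, adjusted p = 0.0034), as was *Oxr1*, an oxidation resistance gene (-0.59, adjusted p = 0.0051). *Sesn3* was lower on chow too (-0.57, adjusted p = 0.047), a call that passed in 7 of the 24 fits that left out 1 liver. A further list held 12 genes for making selenoproteins or for selenoproteins themselves. That class includes several glutathione peroxidases and the thioredoxin reductases. Of the 12, 4 were higher and 3 were lower on the HFD (33.3% and 25%, against 29.3% and 21.1% of bright genes). *Selenow*, among the higher (0.34), and *Selenot*, among the lower (-0.38), are selenoproteins and not part of the synthesis machinery. *Sepsecs*, which forms selenocysteine on its tRNA, was lower (-0.82, adjusted p = 0.0064), and *Trnau1ap*, a protein bound to that tRNA, was higher (0.44, adjusted p = 0.0077).

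In Ogg1-/- livers on the HFD against chow, 6 of the 29 further targets were lower (20.7%, against 5.87% of all genes) and none was higher (against 5.59%). Brighter probe sets passed more often here too. With the filter at a mean log2 value of 6, 14.1% of the genes left were lower and 13.2% were higher. The *Abcc2* call was lost by the methods' t-test and with only the arrays of the groups compared. *Abcc2* (-0.61, limma, adjusted p = 0.015), *Trib3* (-0.59, adjusted p = 0.0016), the iron-binding protein *Pir* (-0.55, adjusted p = 0.0036) and the glutathione transferase *Gstp1* (-0.43, adjusted p = 0.015) differed most. Of the 16 regulators, *Bach1*, a repressor of NRF2 target genes, was lower (-0.70, adjusted p = 0.0041), while *Nfe2l1*, a relative of NRF2, was higher (0.31, adjusted p = 0.014), as was *Park7*. *Gstp1* was also lower on the HFD in WT livers (-0.44, adjusted p = 0.044), a call that passed in 4 of the 24 fits that left out 1 liver.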

How the data were processed

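The submitters' processing notes name RMA, and the authors deposited one log2 value per probe set and array (35556 probe sets on 24 arrays, values between 1.81 and 14.8). RMA corrects background, normalises quantiles between arrays and summarises probes, which removes differences in overall brightness between livers and can narrow differences of very bright or very dim probe sets. The number of arrays, not a read depth, limits the precision. Gene symbols came from the platform annotation, in which 21789 probe sets had a single symbol, 1621 had several and 12146 were not named. All 33 genes matched the reference annotation.

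A single linear model of the 4 groups was fitted across all probe sets in limma 3.58.1 (R 4.3.3, lmFit and eBayes), and p-values were adjusted by Benjamini-Hochberg over all of them at a threshold of 0.05. No filter was used. Percentages of all genes count the brightest probe set of each gene. Every gene of the list was named, and other lists were named by the largest differences that passed. The members and lists were chosen with earlier results of these data known. The scripts were tested on simulated data. Alternatives were centring, quantile normalisation, a filter at a mean log2 value of 6, a trended robust prior, the arrays of the groups compared only, the methods' t-test, replicate number as a block, the axis score, the mean of probe sets, and leaving out each liver.

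Replicate numbers did not pair the livers: over 36 pairs of equally numbered livers the correlation of deviations from group means ran between -0.27 and 0.43, with a median of -0.03. Arrays correlated at 0.952 to 0.993 and none were identical.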

Additional observations from a re-analysis of the deposited data

Results flagged for a closer look

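Some single livers lay farther from their group of 6 than Dixon's 95% limit for the gap allows, and chance alone marks about 1 in 20 groups. Of 132 groups of antioxidant genes, 8 held such a liver. Ogg1-/- chow replicate 1 accounted for 5 of them. It was the lowest of its group in *Hmox2* (9.353, with the next liver at 9.678) and *Txnrd1* (8.489, next 9.046), and the highest in *Gpx1* (13.686, next 13.521), *Gpx4* (11.007, next 10.33) and *Txn2* (11.868, next 11.519). It also had the widest gap between *Gclm* and *Gclc* of its group, at 1.405 (next 0.601), and its axis score of 93.4 was the highest of all livers.

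The others were WT HFD replicate 2 in *Hmox2* (9.757, next 9.583), Ogg1-/- HFD replicate 4 in *Prdx4* (9.374, next 9.064) and WT chow replicate 5 in *Sod1* (13.44, next 13.288). In *Ogg1* itself, WT chow replicate 4 was the lowest WT chow liver at 6.26 (next 6.444), still above every Ogg1-/- liver.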

How the results depend on the processing

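No difference that passed, in the 33 genes or in the other lists and markers, changed its direction under the alternatives run. The count of 13 genes on the HFD was 10 after quantile normalisation, 18 without dim probe sets, 13 by the methods' t-test and 3 with the axis score, and it ran between 9 and 17 when 1 liver was left out. *Gclm*, *Txn2* and *Sod2* passed under every alternative, and *Hmox2*, *Gclc*, *Gpx1*, *Txnrd2*, *Prdx1* and *Prdx2* in all 24 fits without 1 liver. *Keap1* and *Gsr* were lost without Ogg1-/- HFD replicates 1, 2 or 6, *Keap1* also without WT HFD replicates 1, 2 or 6, and *Gsr* without WT HFD replicates 1 or 4 (adjusted p up to 0.092 and 0.067). *Sod3* was lost without Ogg1-/- HFD replicates 1, 2 or 5 or WT HFD replicates 2 or 6 (up to 0.0685), and *Fth1* in 21 of the 24 fits (up to 0.13). In Ogg1-/- livers the 4 genes that passed between diets became 8 without dim probe sets, 2 with only the arrays of the groups compared and 1 with the axis score, and between 1 and 13 without 1 liver. The 13 came without Ogg1-/- chow replicate 1, and of the 4, *Hmox2* passed in all 24 such fits, *Sod2* in 23, *Txn2* in 17 and *Osgin1* in 8 (adjusted p up to 0.0117, 0.059, 0.0959 and 0.122). The counts of 0 between diets in WT livers and for the interaction ran between 0 and 1, and that on chow stayed at 0. With replicate number as a block, 13 genes passed on the HFD, 0 on chow and 4 and 0 between diets in Ogg1-/- and WT livers, but *Fth1* was lost there, and *Fth1* and *Keap1* were lost by the t-test. The cause of these shifts was not tested.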
